A study of Drosophila melanogaster with 3 samples.

Results

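The vacuolar ATPase genes of Drosophila melanogaster were examined for binding of the transcription factor HLH54F. Their members were all protein-coding genes of the Ensembl annotation BDGP6 whose symbol starts with Vha, which gave 33 of 13945 protein-coding genes. HLH54F is a basic helix-loop-helix (bHLH) factor of the caudal visceral mesoderm, from which the longitudinal gut muscles form. Binding was measured by chromatin immunoprecipitation and sequencing (ChIP-seq) in 1 group of 3 biological replicates. Each replicate was whole embryos, males and females pooled, aged 0 to 24 h, from a transgenic line that stably expressed HLH54F with green fluorescent protein (GFP) at its C terminus. The labels do not give the promoter of the transgene. They name the antibody inconsistently: 1 field gives HLH54F, and the descriptions give GFP. Chromatin had been sonicated to 200 to 800 bp. Whole embryos do not separate tissues, so the cells in which a promoter was bound are not known, and no second condition was measured.

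The vacuolar ATPase is a proton pump that acidifies lysosomes, endosomes and secretory vesicles and, in the plasma membrane of fly epithelia such as the Malpighian tubule, energises ion transport. Its peripheral V1 sector, with subunits A to H, hydrolyses ATP. Its membrane sector V0, with subunits a, c, c″, d and e, carries protons, and accessory proteins join it. Flies carry several genes for most subunits: one copy is usually used widely or in epithelia, and the others are limited to few tissues such as the testis. By such prior knowledge, and not from these data, 14 members were classed as broadly used and 19 as paralogs. Vha68-1, which is also known to be widely used, was placed with the paralogs. By sector, 13 members encode V1 subunits, 18 encode V0 subunits and 2 are accessory.

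Peaks were taken from the list that the authors kept by the irreproducible discovery rate, called the optimal peaks, which held 4246 peaks. The wider pooled list, called on all replicates together, held 23689 peaks, and the optimal peaks were the 4246 of highest signal in it. Signal is the authors' value of each peak against a control, used here only to describe and rank peaks within a list. In the optimal list it ran from 92.7 to 3344, with a median of 154. The lists of replicates 1, 2 and 3 held 30000, 30000 and 24914 peaks, and their read depth is unknown. The optimal and pooled lists were derived from these replicates, so a peak's presence in a replicate is a description, not independent support.

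The sequences below show what lay under 6 of the promoter peaks of the family. Those of Vha36-1 and Vha16-1, which are of higher signal than some shown, are not printed here, nor are those of Vha100-2 and Vha44, whose summits lie in an exon. Each stretch is cut to the bases within 100 bp of the summit that lie in no annotated exon. They come from the RefSeq copy of the release 6 genome, whose coordinates are those of dm6, and read 5′ to 3′ on the strand of the Vha gene. Capitals mark the E-box CANNTG, the site that bHLH proteins bind. The stretches are chr2L:10737229-10737344 on the minus strand for Vha16-5, chr3R:12627830-12627968 on the minus strand for Vha55, chr2L:13004108-13004308 on the minus strand for Vha68-1, chr3L:21539448-21539593 on the plus strand for VhaM9.7-b, chr3L:4186866-4186977 on the minus strand for VhaM9.7-c and chr3R:5591460-5591651 on the plus strand for Vha26.
Vha16-5: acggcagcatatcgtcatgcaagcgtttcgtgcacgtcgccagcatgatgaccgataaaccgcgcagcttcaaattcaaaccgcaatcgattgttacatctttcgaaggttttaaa
Vha55: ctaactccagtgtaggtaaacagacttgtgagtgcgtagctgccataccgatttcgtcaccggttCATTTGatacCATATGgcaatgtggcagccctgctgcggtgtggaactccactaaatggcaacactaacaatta
Vha68-1: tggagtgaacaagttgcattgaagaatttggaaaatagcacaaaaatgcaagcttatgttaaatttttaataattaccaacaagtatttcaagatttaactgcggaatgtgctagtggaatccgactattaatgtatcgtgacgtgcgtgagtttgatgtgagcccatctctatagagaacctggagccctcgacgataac
VhaM9.7-b: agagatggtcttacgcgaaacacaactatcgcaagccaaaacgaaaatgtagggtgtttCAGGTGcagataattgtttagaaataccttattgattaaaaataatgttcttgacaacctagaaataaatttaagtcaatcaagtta
VhaM9.7-c: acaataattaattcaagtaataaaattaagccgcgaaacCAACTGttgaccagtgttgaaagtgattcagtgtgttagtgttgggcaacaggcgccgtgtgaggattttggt
Vha26: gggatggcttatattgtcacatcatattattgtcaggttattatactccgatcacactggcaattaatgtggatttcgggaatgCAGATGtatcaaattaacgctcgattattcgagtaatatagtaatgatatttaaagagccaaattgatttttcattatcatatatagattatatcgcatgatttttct
The Vha55 stretch holds 2 E-boxes, those of VhaM9.7-b, VhaM9.7-c and Vha26 hold 1 each, and those of Vha16-5 and Vha68-1 hold 0. With the exon bases within 100 bp of the summit included, Vha55 held 4, VhaM9.7-c 2 and Vha16-5 1. The counts of VhaM9.7-b, Vha26 and Vha68-1 stayed the same.

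An optimal summit lay within 500 bp of a transcription start site (TSS) of the gene itself, called a promoter peak here, in 12 of the 33 Vha genes (36.4%). Over all protein-coding genes the share was 22.6%. The peaks fell mainly on the broadly used copies: 9 of 14 broadly used subunits (64.3%) had one, and 3 of 19 paralogs (15.8%). The 9 were Vha68-2, Vha55, Vha44, Vha36-1, Vha26, Vha13, Vha100-2, Vha16-1 and VhaM9.7-b, and the 3 paralogs were Vha16-5, Vha68-1 and VhaM9.7-c. By sector, 7 of 13 V1 genes, 5 of 18 V0 genes and 0 of 2 accessory genes had a promoter peak. Of the 13 kinds of subunit, 9 had a gene with one (A, B, C, D, E, G, a, c and e), and F, H, d and c″ had none. Since the classes were set from prior knowledge with earlier results of these data known, these counts are a description and were not tested.

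With a wider window, the gene body or up to 2 kb upstream, 13 of 33 members (39.4%) had an optimal summit, against 30.6% of all protein-coding genes. The broadly used count stayed at 9 of 14, and the paralog count was 4 of 19 (21.1%). The added gene was Vha36-3. In the pooled list, which also holds weak peaks, 19 members (57.6%) had a summit within 500 bp of a start, against 50.4% of all genes. These were 13 of 14 broadly used subunits (92.9%) and 6 of 19 paralogs (31.6%). In the wider window the pooled list reached 21 members (63.6%), close to the 67.3% of all genes, again with 13 of 14 broadly used subunits and with 8 of 19 paralogs (42.1%).

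**Figure D1:**
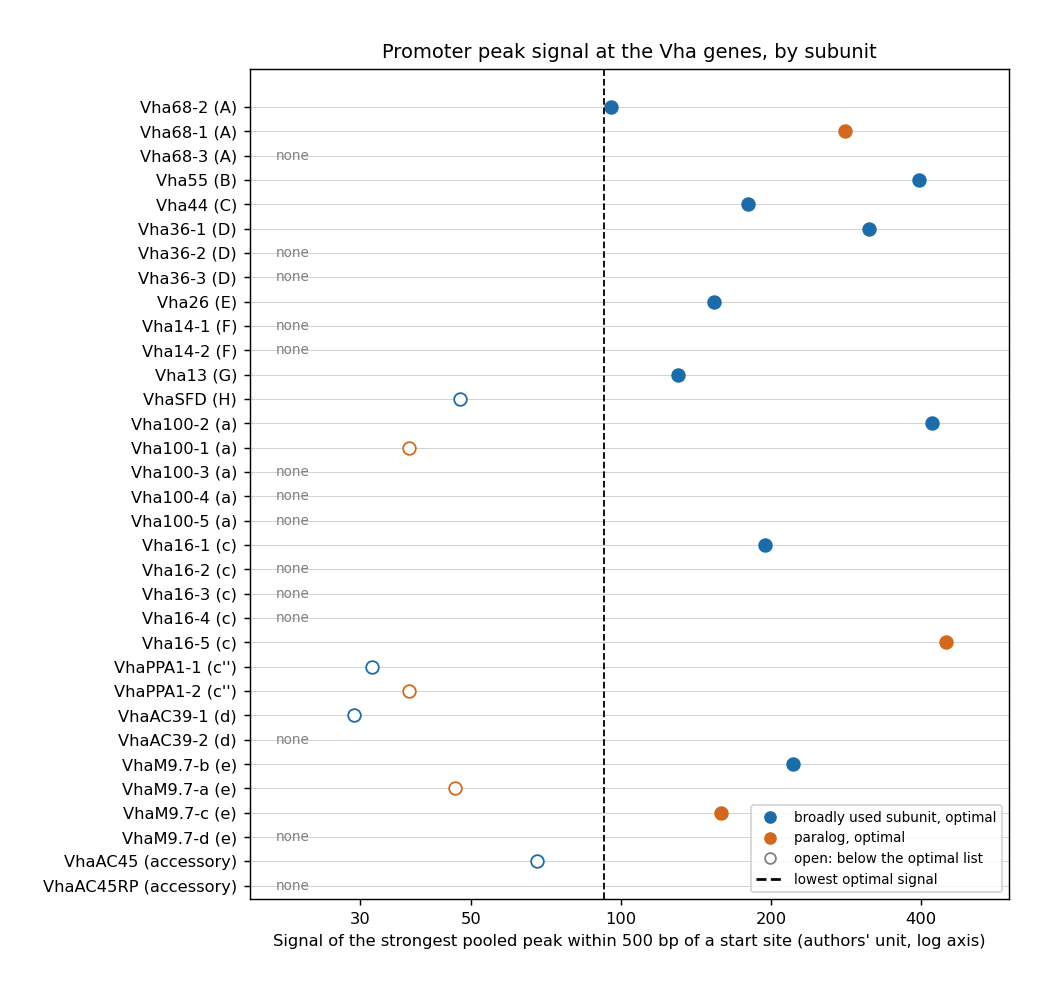
Each row is a Vha gene with its subunit in brackets, and the point is the signal (the authors' unit, log axis) of its strongest pooled peak within 500 bp of a start site. Blue marks broadly used subunits and orange paralogs, open points lie below the optimal list, and the dashed line is the lowest optimal signal, 92.7. Promoter peaks of the 12 genes with filled points ran from 95.4 (Vha68-2) to 448 (Vha16-5), and 14 genes had no pooled peak there.

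Among the catalytic V1 subunits, the ATP-hydrolysing subunit A is encoded by 3 genes. Vha68-1 had a peak at chr2L:13004106-13004245 with a signal of 282, its summit 101 bp upstream of the start. The peak ranked 948, 1320 and 434 in replicates 1, 2 and 3 (901 ± 445, SD, n = 3), where rank 1 is the highest signal of a list. The broadly used copy Vha68-2 had a weaker peak at chr2L:12973952-12974371, with a signal of 95.4 and a summit 160 bp upstream of its start. Its ranks of 3574, 6018 and 5515 (5036 ± 1291, SD, n = 3) lay further down the list than those of Vha68-1 in every replicate, without overlap. Vha68-3 starts 178 bp beyond the end of Vha68-2 on the same strand, and it had no pooled summit in its window. In subunit A the copy classed as broadly used thus stood below Vha68-1, classed as a paralog though also known to be widely used. The Vha68-1 summit lay between its start and that of the divergent gene mTor, 272 bp away.

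Subunit B, which pairs with A in the hydrolytic head, is encoded by Vha55 alone. Its peak at chr3R:12627763-12627976 had a signal of 396 and a summit 39 bp upstream of the start. It ranked 555, 425 and 347 (442 ± 105, SD, n = 3). The divergent neighbour Snx3, a sorting nexin of endosomes, starts 163 bp from this summit.

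The stalk subunits C, D, E and G connect the head to the membrane sector. Vha44, the single gene of subunit C, had a peak at chr2R:16336513-16336932 with a signal of 180. It ranked 1671, 2064 and 2330 (2022 ± 332, SD, n = 3), and its summit lay 86 bp upstream of Vha44 and in the 5′ UTR of Hmgs, which encodes HMG-CoA synthase and starts 37 bp away. Vha36-1, the broadly used subunit D, had a stronger peak at chr2R:15541300-15541495, with signal 315, and ranked 516, 689 and 828 (678 ± 156, SD, n = 3). Its summit lay in the 72 bp between the starts of Vha36-1 and CG8187, 46 bp from the former and 26 bp from the latter. Vha44 stood below Vha36-1 in all replicates.

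The other subunit D genes differed from Vha36-1. Vha36-2 had no pooled summit in its window. Vha36-3 had an optimal peak of signal 293 at chrX:2582249-2582357, which ranked 633, 719 and 999 (784 ± 191, SD, n = 3), below Vha36-1 in every replicate although the ranges overlap. This summit lay 1726 bp upstream of Vha36-3, in an intron of AANATL7 and 191 bp from a start of that neighbour, so it was not a promoter peak of Vha36-3.

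Vha26, the subunit E gene, had a peak at chr3R:5591341-5591760 with a signal of 154, 212 bp upstream of its start and 92 bp from the start of noi, a splicing factor gene. Its ranks of 2616, 2417 and 2242 (2425 ± 187, SD, n = 3) varied little. Vha13, the subunit G gene, had a peak at chr3R:19644254-19644673 with a signal of 130 and a summit 78 bp upstream. Its ranks were 2838, 11417 and 1147 (5134 ± 5507, SD, n = 3), the widest spread among the 14 optimal peaks at Vha genes. The peak stood far down the list of replicate 2.

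The remaining V1 subunits, F and H, had no optimal peak. Vha14-1, the broadly used subunit F, was the one broadly used gene with no pooled summit in its window, the nearest lying 826 bp from its start and outside the window. Its paralog Vha14-2 had none either. VhaSFD, the single subunit H gene, which controls the activity of the head, had a pooled peak of signal 47.5 with a summit 27 bp from its start. That peak ranked 12578 and 8806 in replicates 1 and 2 and was in no peak of replicate 3.

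In the membrane sector, subunit a anchors the pump and sets its place in the cell, and it has 5 genes. Vha100-2, the broadly used copy, had 2 optimal peaks. The stronger, at chr3R:18397105-18397314, had a signal of 421 and ranked 424, 205 and 510 (380 ± 157, SD, n = 3). Its summit lay 308 bp upstream of the inner start of Vha100-2, inside an intron of the longer transcript and in the 5′ UTR of Vti1b, a SNARE gene of endosomal fusion, 241 bp from the Vti1b start. The weaker, at chr3R:18398924-18399343, had a signal of 127, lay 35 bp downstream of the outer start, and ranked 2455, 2716 and 2494 (2555 ± 141, SD, n = 3). The ranks of the 2 peaks did not overlap. Of the other subunit a genes, Vha100-1, the copy known from neurons, had a pooled peak of signal 37.6, and Vha100-3, Vha100-4 and Vha100-5 had none. Vha100-4 begins 517 bp from the end of Vha100-2 on the same strand.

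Subunit c forms the proton-carrying ring. Its strongest peak lay beside a paralog: Vha16-5 had a signal of 448 at chr2L:10737197-10737445, the highest of the family. It ranked 373, 433 and 208 (338 ± 117, SD, n = 3). The summit lay 286 bp upstream of Vha16-5 but 16 bp from the start of the divergent gene CG12299. Vha16-1, the broadly used copy, had a peak at chr2R:6633149-6633276 of signal 195, which ranked 1601, 1267 and 1567 (1478 ± 184, SD, n = 3). Its summit lay 125 bp upstream, and the nearest start of another protein-coding gene, Trap1, was 2872 bp away. Vha16-5 stood above Vha16-1 in every replicate. Vha16-3 had only a pooled peak of signal 29.1, 1472 bp from its start, and Vha16-2 and Vha16-4 had none.

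Subunit e, a small membrane protein, was bound at a broadly used gene and a paralog. VhaM9.7-b had a peak at chr3L:21539283-21539702 of signal 221, which ranked 1376, 1925 and 1118 (1473 ± 412, SD, n = 3). Its summit lay 369 bp upstream of VhaM9.7-b and 46 bp from the start of COX8, which encodes a cytochrome c oxidase subunit. VhaM9.7-c had a peak at chr3L:4186667-4187086 with a signal of 159, 12 bp upstream of its start and within introns of Teh2 and CG18675. Its ranks of 1937, 2496 and 2225 (2219 ± 280, SD, n = 3) were below those of VhaM9.7-b in every replicate, with a small gap between the 1925 of VhaM9.7-b in replicate 2 and the 1937 of VhaM9.7-c in replicate 1. VhaM9.7-a had a weak pooled peak of 46.4, and VhaM9.7-d had none.

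The genes of subunits c″ and d, which complete the ring and join it to the stalk, had weak pooled peaks or none. VhaPPA1-2, VhaPPA1-1 and VhaAC39-1 had signals of 37.5, 31.7 and 29.1, and VhaAC39-2 had none. Of the accessory genes, VhaAC45 had a pooled peak of signal 67.8, with a summit 309 bp upstream of its start and 128 bp from the start of its divergent neighbour Gnptab, and VhaAC45RP had none. VhaAC45 ranked 6078 and 7076 in replicates 1 and 2 and lay in no peak of replicate 3. It was the strongest member outside the optimal list, and Vha68-2, at 95.4, the weakest inside. In all, 12 members had no pooled summit in the gene or 2 kb upstream, 1 of them broadly used.

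For 11 of the 13 members with an optimal peak in the gene or 2 kb upstream, the strongest peak was among the 4246 highest of every replicate (84.6%), against 73.8% of the 4273 protein-coding genes with such a peak. The exceptions were Vha13, through replicate 2, and Vha68-2, through replicates 2 and 3. Every one of the 14 optimal peaks had its summit inside a peak of each replicate's whole list. The replicate summits lay a median of 9.5, 27 and 14.5 bp from the optimal summit in replicates 1, 2 and 3, and at most 79, 156 and 60 bp. Of the 14 peaks, 7 were 420 bp wide, the width of 76.6% of the whole optimal list, and the other 7 were 109 to 249 bp wide.

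**Figure D2:**
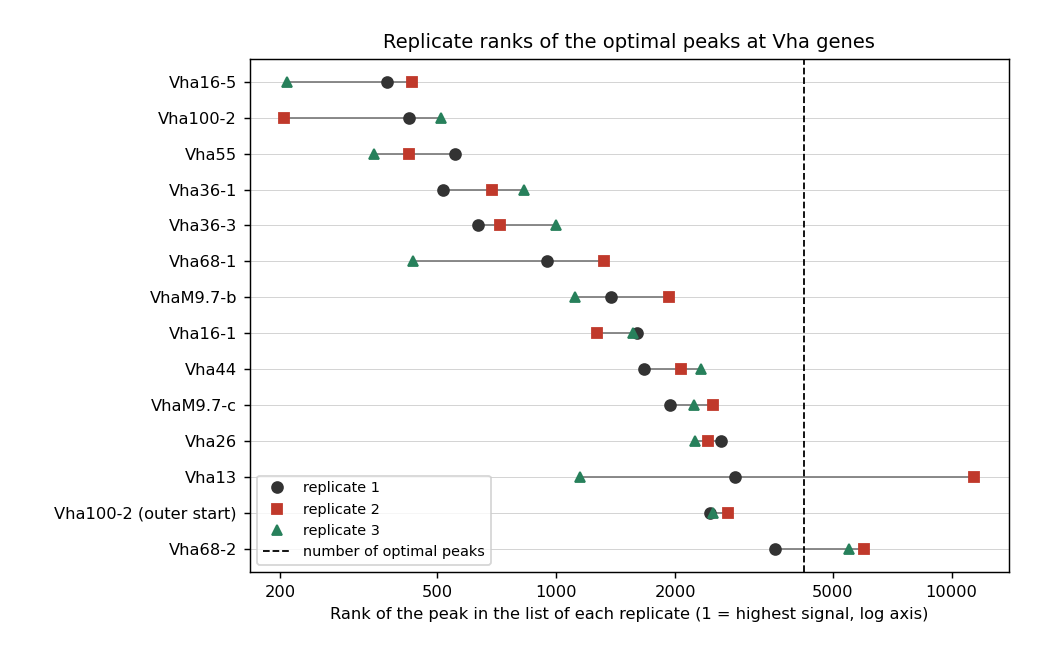
Each row is an optimal peak at a Vha gene, and the points are its rank in the list of each replicate (log axis, 1 = highest signal), joined by a grey line from lowest to highest. The dashed line marks rank 4246, the number of optimal peaks. The points of replicate 2 for Vha13 and of replicates 2 and 3 for Vha68-2 lie beyond it, and all the others lie before it.

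The median signal of the 12 strongest promoter peaks was 208, against 177 over the 3157 protein-coding genes with one, and their range of 95.4 to 448 lay within the 92.7 to 3344 of all. The summits lay upstream of the Vha start in 12 of 12 genes, a share of 88.8% over all 3157. The median position relative to the start was -113 bp in the Vha genes and -111 bp in all, where a negative value is upstream.

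Many of the bound Vha promoters were shared with a divergent gene, as were many bound promoters of protein-coding genes in general. A head-to-head gene, whose start lies within 500 bp of the summit and which points away from the Vha gene, was present for 8 of 12 (66.7%), against 57.0% over all 3157 genes. The Vha start was the nearest protein-coding start to the summit in 6 of 12, against 70.8% over all. The 6 were Vha55, Vha68-1, Vha68-2, Vha16-1, VhaM9.7-c and Vha13. For Vha16-5, Vha100-2, Vha36-1, VhaM9.7-b, Vha44 and Vha26 the neighbour's start was nearer. When each peak counted only for the gene with the nearest start, 7 members kept a promoter peak, Vha100-2 through its second peak, against 16.7% of all genes. To which gene of a pair the binding relates cannot be told from peak lists.

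**Figure D3:**
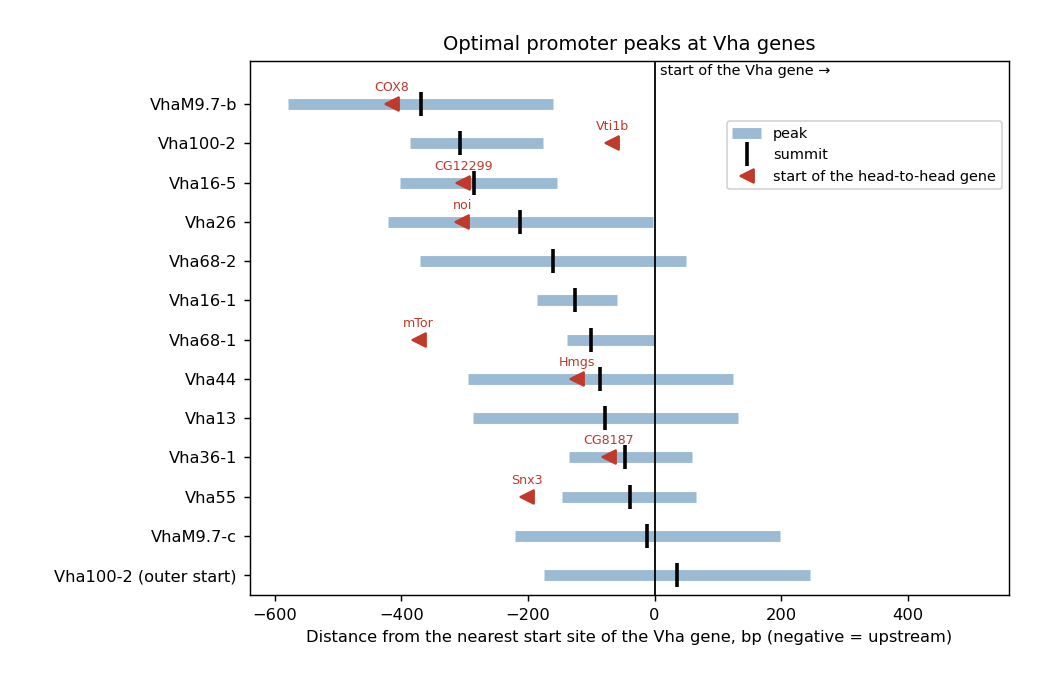
Blue bars are the optimal promoter peaks of Vha genes, black ticks their summits and red triangles the start of a head-to-head gene within 500 bp of the summit, all by distance in bp from the nearest start of the Vha gene at 0. Of the 13 summits, 12 lie upstream, from 12 bp (VhaM9.7-c) to 369 bp (VhaM9.7-b), and that at the outer start of Vha100-2 lies 35 bp downstream.

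The arrangement of promoters moved with the classes. A head-to-head gene with its start within 1 kb of any start of the gene was present for 9 of 14 broadly used subunits and 5 of 19 paralogs, and for 36.2% of all protein-coding genes. Of the 14 Vha genes with such a neighbour, 9 had a promoter peak, against 41.2% of all genes so arranged. Of the 19 without, 3 had one, against 12.1% of all such genes. Within genes that had the neighbour, 7 of 9 broadly used subunits and 2 of 5 paralogs were bound. Within those that lacked it, 2 of 5 broadly used subunits and 1 of 14 paralogs were. The part of this arrangement in the difference between the classes was not tested.

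**Figure D4:**
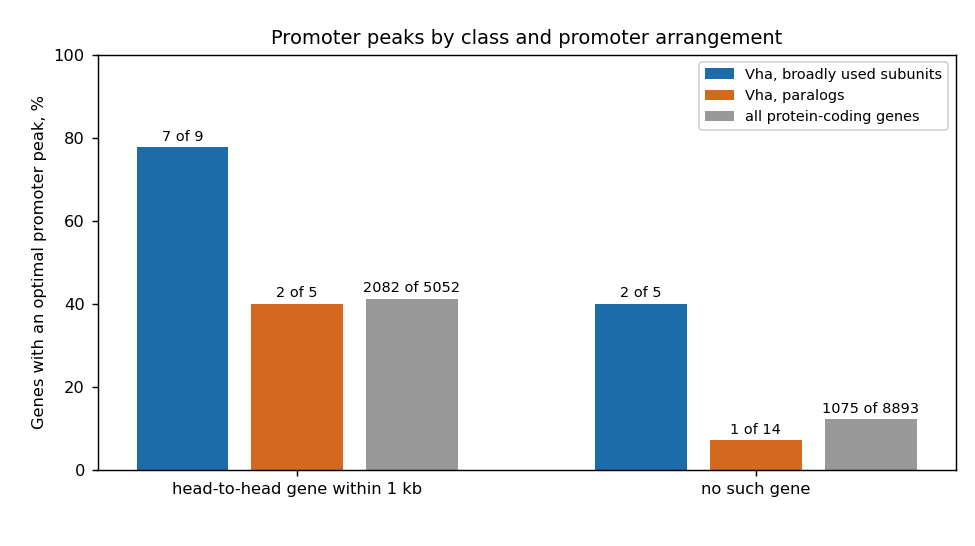
Bars give the percentage of genes with an optimal promoter peak, for genes with a head-to-head gene within 1 kb (left) and without (right), with counts above. Blue is broadly used Vha subunits, orange Vha paralogs and grey all protein-coding genes; on both sides the blue bar is the tallest, at 7 of 9 and 2 of 5.

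The windows of 100 bp on each side of the 12 strongest promoter summits were searched on both strands for 6 words, and the same was done for 2487 optimal peaks within 500 bp of any protein-coding start. The general E-box CANNTG, which includes the first 3 of the words that follow, stood in 10 of 12 windows (83.3%), against 62.3% of the 2487. This gap was narrower or absent in other windows: within 200 bp of the summit the shares were 91.7% and 86.2%; in promoters from 250 bp before to 50 bp after the start the E-box stood in 9 of the same 12 genes and in 77.3% of all protein-coding genes. CAGCTG, in the windows of Vha36-1 and Vha44, stood in 2 (16.7%), against 14.5%. CATATG, at Vha55 and Vha13, stood in 2 (16.7%), against 6.27%. CACGTG, the core of the site that Mitf and its mammalian relative TFEB bind at lysosomal genes, also stood in 2 (16.7%), Vha44 and Vha55, against 2.98%. In Vha55 it lies in the transcribed part of the window, outside the stretch printed above. TATCGATA, the DNA replication-related element, stood in 0 of 12, against 9.57%, and GAGAG in 3 (25.0%), against 19.0%. The windows of Vha68-1 and Vha68-2 held no E-box. In the 301 bp promoters from 250 bp before to 50 bp after the start, CACGTG stood in 3 of all 33 Vha genes (9.09%), against 4.24% of all protein-coding genes. CATATG stood there in 6 (18.2%), against 7.83%, and CAGCTG in 8 (24.2%), against 17.7%. TATCGATA (6.06%, against 9.37%) and GAGAG (27.3%, against 29.8%) went the other way. With so few windows these shares are a description, and a word match does not show a binding site.

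Genes that work with the pump were counted the same way. Of 3 genes for assembly of the vacuolar ATPase, 0 had a promoter peak, and 2 had an optimal summit in the wider window, where the share of all protein-coding genes was 30.6%: CG5969 with a signal of 129 and Rbcn-3B, part of the complex that promotes assembly, with 95.5. Of 17 genes of Mitf and lysosomal growth signalling through mTORC1, 4 had a promoter peak (23.5%). In the wider window 6 of the 17 had an optimal summit. The strongest were Wdr24 at 327, RagC-D at 309 and mTor at 282, the last being the peak that mTor shares with Vha68-1. The RagC-D summit lay 1310 bp from its start and was not a promoter peak. Mitf, the factor that in flies drives vacuolar ATPase genes, had no optimal peak in its window. Of 21 genes of lysosomal enzymes and membrane proteins, 6 had a promoter peak (28.6%), led by Hexo2 at 305, Ppt1 at 210 and CtsB at 201, all hydrolases. In the wider window 9 of the 21 had an optimal summit. Of 10 genes for fusion of endosomes with lysosomes, 5 had a promoter peak, led by the small GTPase Rab7 at 189, car at 166 and Vps39 at 143. The same 5 of 10 had an optimal summit in the wider window. Most of these peaks also had a head-to-head gene: IntS11 for Wdr24, Ogg1 for Ppt1, amrt for CtsB, Epp for Rab7, Grip84 for car and eIF1A for Vps39. Hexo2 had none. To which gene of such a pair the binding relates cannot be told here either. The share of all protein-coding genes with a promoter peak was 22.6%.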

How the data were processed

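Peak lists were used in dm6 as the authors deposited them. Per the deposited text records, each replicate was called against a control file, a pooled list was called on all 3 replicates, and these relaxed lists fed the irreproducible discovery rate procedure that gave the optimal list. For the aligner and the caller, names and versions were not given in the sources used here. The signal of each peak is the authors' deposited value, with no scaling stated, so it was compared only within a list. Summits were taken at the deposited offset. Every annotated transcript's 5′ end counted as a start site (Ensembl release 115, BDGP6 6.54), and sequence came from the release 6 genome. Assignment of peaks to genes (Python 3.11.15, pandas 2.3.3, numpy 2.4.6) was checked on simulated peaks. Every Vha gene was accounted for by rule: those with an optimal summit in full, the others by their strongest pooled peak. The members, classes and gene lists were chosen with earlier results of these data known. With 1 group and no second condition, no test was made: counts stand beside those of all protein-coding genes. Of the listed pathway symbols, Vma21, Flcn and CtsD had no match. This concerns the symbols only, since a gene can stand in the same list under another symbol. The former VhaM8.9 now has another symbol and is outside the rule.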

Additional observations from a re-analysis of the deposited data

How the results depend on the processing

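Of 84 alternative values, 70 stayed within 1.5 times the main count or within the spread of the replicates, and 14 moved. With all pooled peaks in place of the optimal list, 19 members and 6 paralogs had a promoter peak, and 21 members and 8 paralogs had a summit in the wider window. When a peak counted only for the gene with the nearest start, 7 members and 5 broadly used subunits had a promoter peak, and 7 members, 5 broadly used subunits and 2 paralogs had a summit in the wider window. Reaching 5 kb upstream raised the paralogs to 7 of 19. The share of all protein-coding genes was not counted for 5 kb or for the nearest start in the wider window. Nor was it counted for the lists of single replicates. At these settings the Vha genes therefore cannot be compared with other genes. The median pooled rank of the 13 strongest peaks was 1203, and their median rank in replicate 1 was 1376. CACGTG stood in 1 of the 12 bound promoters when the window ran from 250 bp before to 50 bp after the gene start, read from the genome, and TATCGATA stood in 1 both there and within 200 bp of the summit. The causes of these moves were not tested. Leaving out each replicate in turn gave 11 to 12 members whose strongest peak was in every top list. With the strongest peaks of replicates 1, 2 and 3 in place of the optimal list, 12, 10 and 11 members had a promoter peak. A head-to-head neighbour within 1 kb was present for 9 of the 12 members with a promoter peak. Other distances, chosen after seeing the data, gave 8 (500 bp) and 10 (2000 bp) of 12. Among the 21 members without a promoter peak they gave 5 and 6. Of all protein-coding genes with such a neighbour, 46.4% (500 bp) and 36.3% (2000 bp) had a promoter peak. Of those without the neighbour, 13.7% and 11.7% had one. No paired analysis was possible because the labels give 1 group. Using the outermost start only does not alter the wider window, so that alternative was not run there.

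The depth of the replicates is unknown, so the lack of a peak at a Vha gene shows only that none was listed. Signal is not comparable between lists. The class of a subunit rests on prior knowledge, and with Vha68-1 among the broadly used the counts were 10 of 15 and 2 of 18.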

Other observations

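The Vha genes also held 36 weaker peaks of the pooled list, outside the optimal one. Of these, 26 (72.2%) lay in a peak of replicate 1, 23 (63.9%) in one of replicate 2 and 15 (41.7%) in one of replicate 3, against 72.3%, 68.6% and 49.9% of all 19443 such peaks. The counts include weaker summits inside a replicate peak that also covers an optimal summit, as at Vha100-2 and Vha26. The list of replicate 3 is the shortest of the lists. Vha16-1, whose product is the main subunit of the proton-carrying ring, held 7 of the weaker peaks, with signals of 29.7 to 63.6 and most of them in its introns. In Vha16-1, 6 lay in a peak of replicate 1, 5 in one of replicate 2 and 0 in one of replicate 3, although its promoter peak ranked 1567 in replicate 3, between its ranks in the other lists.

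Several Vha genes lie in tandem on the same strand with a copy of the same subunit. Vha68-2 and Vha68-3 are 178 bp apart and Vha100-2 and Vha100-4 are 517 bp apart, and in both pairs the upstream gene had an optimal promoter peak and the downstream gene no pooled summit in its window. VhaPPA1-1 and VhaPPA1-2, 2052 bp apart with RpS5b between them, each had weak pooled peaks only. Vha16-3 and Vha16-2 are 985 bp apart, with a weak pooled peak for the former and none for the latter.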
